A study of Mus musculus with 10 samples.

Results

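The colony-stimulating factors and their receptors were described across 5 conditions of bone-marrow-derived macrophages (BMDMΦs). The members were chosen by gene symbol, as the 3 ligands Csf1, Csf2 and Csf3 and the 5 receptor chains Csf1r, Csf2ra, Csf2rb, Csf2rb2 and Csf3r. Of these 8 genes, 7 were matched to a probe set, out of 19505 genes with 1 symbol on the array. Csf2rb2 was not matched to a probe set here, and each of the other members had a single probe set.

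BMDMΦs were derived from the marrow of male C57Bl/6J mice 8 to 12 weeks old, in medium with 25% L929-conditioned medium as a source of M-CSF for 7 days, and RNA was measured on 10 Clariom S arrays after 48 h of stimulation, 2 arrays per condition. KO CAF CM was medium conditioned by serum-starved cancer-associated fibroblasts (CAFs) in which Snai1 had been knocked out, and WT CAF CM was medium from CAFs with intact Snai1, the CAFs being established from MMTV-PyMT mammary tumours. The IL4 arrays came from macrophages given 10 ng/mL IL4 and the IFNγ arrays from macrophages given 100 units/mL IFNγ, while not stimulated macrophages were kept in complete medium with serum. By the study's methods all macrophages came from C57Bl/6J mice and the knockout belonged to the fibroblasts, although the descriptions given with the samples attach it to the macrophages. No array held macrophages in starved medium without fibroblasts, so the effects of the medium and of the CAF products cannot be told apart in the comparisons with not stimulated macrophages. Whether L929 medium was present during the 48 h is not given in the sources used here. Whether both arrays of a condition stem from different animals or dishes is not given, and so the p-values reflect the spread between these samples alone, which may be technical.

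The 3 factors are secreted glycoproteins that carry haematopoietic precursors towards myeloid cells and keep the mature cells alive. CSF1, also called M-CSF, signals through the receptor tyrosine kinase CSF1R, on which most tissue macrophages depend. CSF2, or GM-CSF, binds the alpha chain CSF2RA and signals through the common beta chain CSF2RB, which also serves IL3 and IL5. CSF3, or G-CSF, binds CSF3R, a single-chain receptor best known from neutrophils and their precursors. Mice have a further beta chain, encoded by Csf2rb2, that serves IL3 alone and is a close paralog of Csf2rb, so how far the Csf2rb probes also read Csf2rb2 RNA is uncertain.

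Promoters were listed in RefSeq (build GRCm38.p6) for 5 of the members, Csf1, Csf2, Csf2ra, Csf2rb2 and Csf3r, each running from 250 bases before the start of the gene to 50 bases into it. Those of Csf1 and Csf3r are shown because these genes were called changed in at least 1 comparison, and promoters of Csf3, Csf1r and Csf2rb were not used here. The Csf1 promoter lies at chr3:107760420-107760719 on the minus strand and the Csf3r promoter at chr4:126024409-126024708 on the plus strand, both printed in the direction of the gene. The capitals mark matches to the motifs searched, an NF-kB motif in Csf1 and an ETS-type motif in Csf3r.
Csf1 promoter: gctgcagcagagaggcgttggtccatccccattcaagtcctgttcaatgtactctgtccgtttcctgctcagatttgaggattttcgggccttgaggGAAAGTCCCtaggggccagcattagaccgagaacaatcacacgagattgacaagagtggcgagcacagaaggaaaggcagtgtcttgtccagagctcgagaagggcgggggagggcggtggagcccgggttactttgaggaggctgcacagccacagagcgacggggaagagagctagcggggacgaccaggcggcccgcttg
Csf3r promoter: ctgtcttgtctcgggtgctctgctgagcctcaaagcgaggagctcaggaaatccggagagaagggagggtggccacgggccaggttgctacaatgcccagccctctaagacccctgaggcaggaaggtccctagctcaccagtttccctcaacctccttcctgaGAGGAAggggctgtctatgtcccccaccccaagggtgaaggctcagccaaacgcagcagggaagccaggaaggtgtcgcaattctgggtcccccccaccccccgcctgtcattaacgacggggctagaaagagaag
The search covered 4 motifs on both strands, the ETS-type motif GAGGAA, the C/EBP motif TTGCNNAA, the STAT motif TTCNNNGAA and the NF-kB motif GGGANTTTC. No match overlapped another motif. The shorter letters GGAA, the core common to ETS sites, were not searched and also stand in lower case in both printed promoters. The NF-kB letters were present in 1.11% of 32851 promoters of the same length, and in Csf1 they stood on the opposite strand with the first base at -153. The ETS-type motif GAGGAA, in 28.3% of promoters, stood at -86 in Csf3r, at -14 and -8 in Csf2ra, and on the opposite strand at -167 and 29 in Csf2rb2. The STAT motif, in 8.3% of promoters, was found at -15 in Csf2rb2, and the C/EBP motif, in 10.8%, at -145 in Csf2. These matches describe the letters only.

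Values are log2 signals, so that 1 unit is a doubling, and a level is comparable between arrays but not between genes. Differences were tested with limma on all 22206 probe sets, and a gene is called changed where its Benjamini-Hochberg adjusted p was under 0.05. Array medians ran from 5.57 to 5.71, and Pearson's r between replicate arrays across probe sets was 0.9936 to 0.9952. The KO CAF CM arrays had the lowest r, and the WT CAF CM arrays had the most probe sets over 4-fold apart, 39 against 6 to 14 in the other conditions. All 6 macrophage markers measured, among them Adgre1 and Lyz2, lay above the array median on every array, with a mean of 14.08 to 15.87. Snai1, which was deleted in the fibroblasts and not in these cells, was dim on all arrays, at 4.13 to 4.93, and therefore checks no label.

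**Figure D1:**
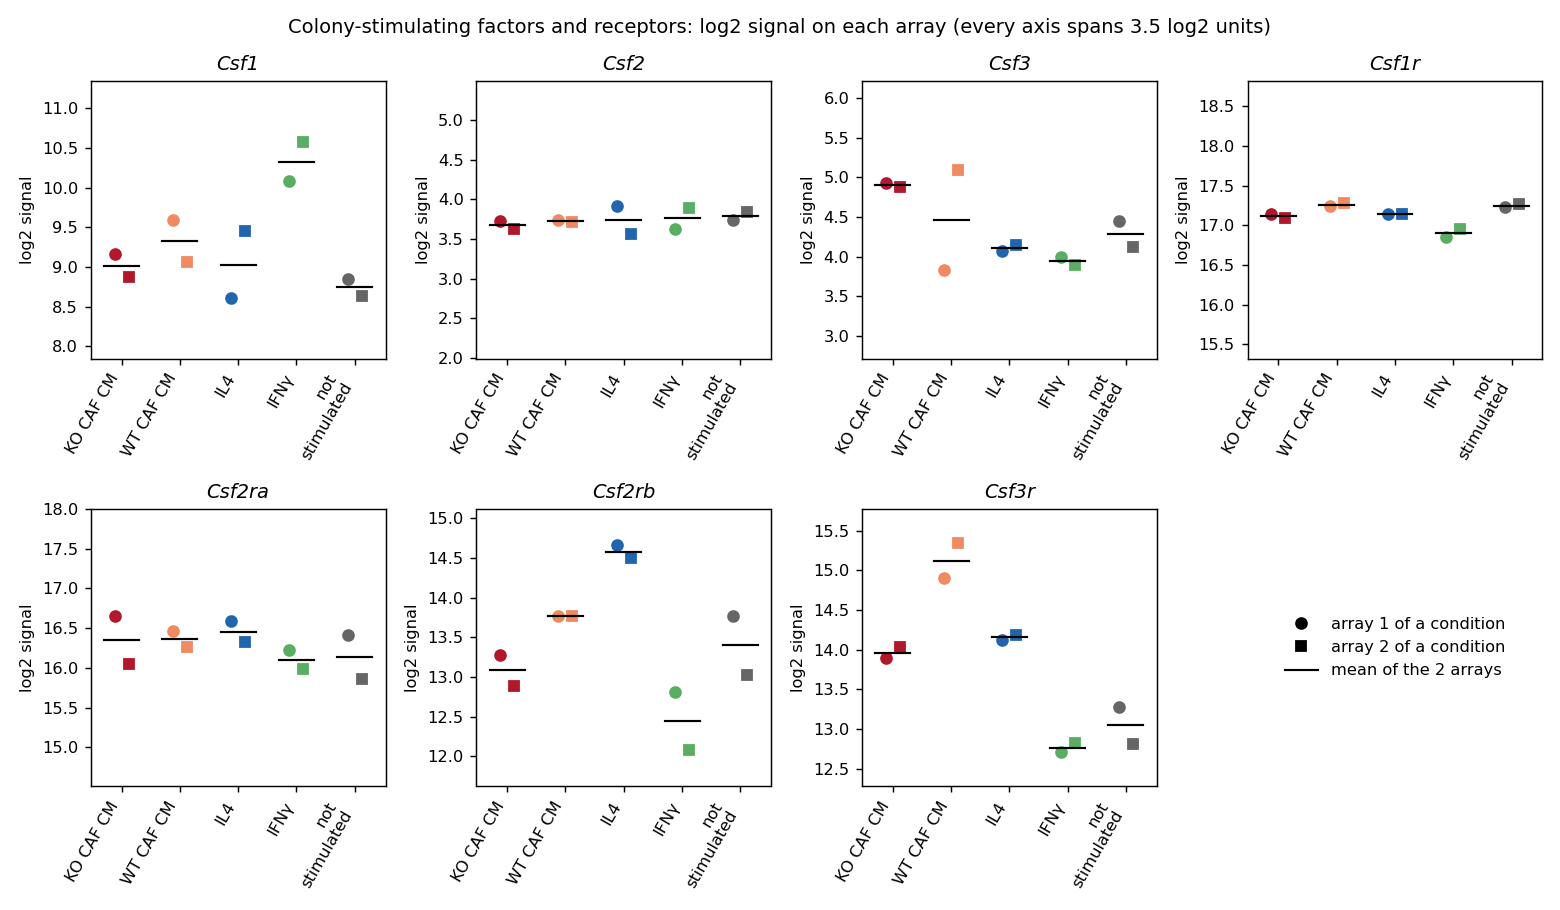
Log2 signal of the 7 measured members on each of the 10 arrays, by condition, with circles for the first and squares for the second array of a condition and lines for the mean of the 2 arrays. Csf3r reached 14.90 and 15.34 with WT CAF CM, Csf1 reached 10.08 and 10.58 with IFNγ, and Csf2rb reached 14.66 and 14.50 with IL4, each above all other conditions.

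Among the ligands, Csf1 rose with IFNγ, whereas Csf2 and Csf3 were dim and passed no test. These signals are macrophage RNA and do not give the factors that the CAFs released into their media. In the paper's protein array of CAF media, G-CSF and GM-CSF were more abundant from WT than from KO CAFs, and M-CSF was nearly equal. Whether these proteins acted on the macrophages was not tested here. Csf1 encodes the macrophage growth factor. Its signal was 9.16 and 8.88 on the KO CAF CM arrays, 9.59 and 9.07 with WT CAF CM, 8.61 and 9.45 with IL4, 10.08 and 10.58 with IFNγ, and 8.85 and 8.64 in not stimulated macrophages. Both IFNγ arrays lay above the other 8, and the IL4 arrays spanned nearly the whole range of the remaining conditions. Csf1 averaged 10.33 ± 0.35 with IFNγ and 8.75 ± 0.15 in not stimulated macrophages (SD, n = 2 each), a log2 difference of 1.59 (SE 0.29, 95% interval 0.94 to 2.23, 3-fold, limma adjusted p = 0.0035). IFNγ raised 5.38% of all probe sets and lowered 6.68%, and among the members it raised 1 of 7 and lowered 0. The call was kept in 19 of 20 alternatives, the exception being the methods' test for single genes, at a Benjamini-Hochberg adjusted p of 0.25 over all probe sets.

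Set against the other stimuli, Csf1 was lower with KO CAF CM than with IFNγ by a log2 difference of -1.31 (SE 0.29, limma adjusted p = 0.0096) and lower with IL4 than with IFNγ, at -1.30 (SE 0.29, limma adjusted p = 0.011). For WT CAF CM over IFNγ the difference was -1 (SE 0.29, limma adjusted p = 0.0487), and this call was lost in 9 of 17 alternatives, with an adjusted p of 0.33 without the second IFNγ array and 0.32 without the second WT CAF CM array. The KO CAF CM difference lost its call without the second KO CAF CM array (-1.17, limma adjusted p = 0.068) or the second IFNγ array (-1.06, limma adjusted p = 0.10), and the IL4 difference without the first IL4 array (-0.88) or the second IFNγ array (-1.05), at a limma adjusted p of 0.12 each. Csf1 did not pass the test between KO CAF CM and WT CAF CM, at -0.31 (95% interval -0.95 to 0.33), nor with KO CAF CM (0.28), WT CAF CM (0.59) or IL4 (0.29) over not stimulated macrophages. In the order of levels, IFNγ was followed by WT CAF CM, IL4, KO CAF CM and not stimulated, and of the neighbours only IFNγ and WT CAF CM differed beyond their spread.

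Csf2 encodes GM-CSF, a product of activated lymphocytes, stroma and some myeloid cells. Its signal was 3.72 and 3.62 on the KO CAF CM arrays, 3.74 and 3.71 with WT CAF CM, 3.92 and 3.56 with IL4, 3.63 and 3.89 with IFNγ, and 3.74 and 3.84 in not stimulated macrophages. All values lay below the array medians, and the conditions overlapped except that both KO CAF CM arrays were slightly below both not stimulated arrays. The differences over not stimulated macrophages were -0.12 with KO CAF CM, -0.07 with WT CAF CM, -0.05 with IL4 and -0.03 with IFNγ, each with an SE of 0.19. The 95% interval for KO CAF CM over WT CAF CM was -0.48 to 0.37.

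Csf3 encodes G-CSF, the factor for neutrophil production. Its signal was 4.93 and 4.88 on the KO CAF CM arrays, 3.83 and 5.10 with WT CAF CM, 4.07 and 4.15 with IL4, 4.0 and 3.90 with IFNγ, and 4.45 and 4.12 in not stimulated macrophages. The 2 WT CAF CM arrays held both the lowest and the highest value of the series, so the KO CAF CM arrays fell between them. Csf3 averaged 4.91 ± 0.04 with KO CAF CM, against 4.47 ± 0.90 with WT CAF CM (SD, n = 2 each), a log2 difference of 0.44 (95% interval -0.26 to 1.14, limma adjusted p = 0.74). The difference was 1.08 without the second WT CAF CM array and -0.20 without the first. Over not stimulated macrophages it was 0.62 with KO CAF CM (limma adjusted p = 0.27) and 0.18 with WT CAF CM (0.85).

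**Figure D2:**
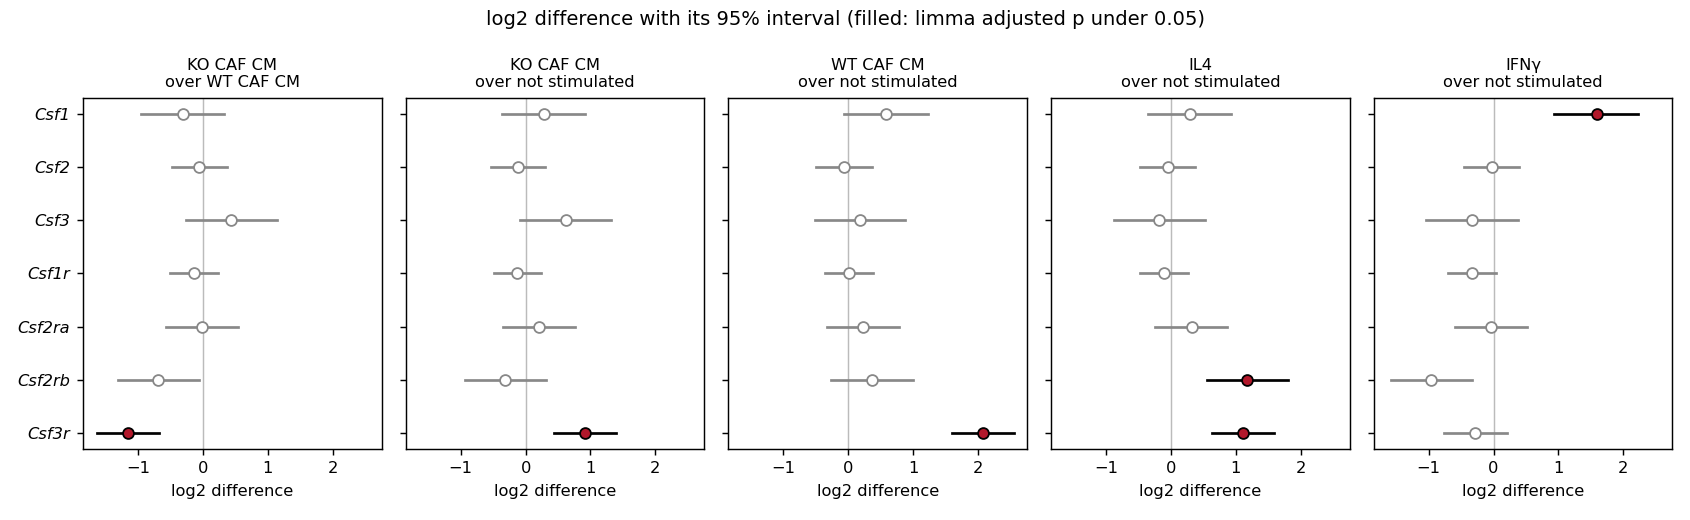
Log2 difference of each measured member in 5 comparisons, as points with their 95% intervals from limma, filled where the adjusted p was under 0.05. Csf3r is filled in 4 of the 5 panels, at -1.16, 0.92, 2.08 and 1.11, Csf1 only with IFNγ, at 1.59, and Csf2rb only with IL4, at 1.18.

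Among the receptors, Csf3r was lower with KO CAF CM than with WT CAF CM and rose with both media and with IL4, Csf2rb rose with IL4, and Csf1r and Csf2ra passed no test. Csf3r encodes the G-CSF receptor. Its signal was 13.89 and 14.03 on the KO CAF CM arrays, 14.90 and 15.34 with WT CAF CM, 14.12 and 14.19 with IL4, 12.71 and 12.82 with IFNγ, and 13.28 and 12.81 in not stimulated macrophages. Both WT CAF CM arrays lay above the other 8, the KO CAF CM and IL4 arrays lay close together in the middle, and the IFNγ and not stimulated arrays lay lowest and overlapped.

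With KO CAF CM, Csf3r averaged 13.96 ± 0.10, against 15.12 ± 0.31 with WT CAF CM (SD, n = 2 each). The log2 difference was -1.16 (SE 0.22, 95% interval -1.64 to -0.68), or 2.23-fold lower with KO CAF CM, with a limma adjusted p of 0.024. It was the only member of 7 called in this comparison, in which 0.694% of all probe sets were lower and 0.666% higher. The call was lost without either KO CAF CM array (-1.09 and -1.23, limma adjusted p = 0.13 and 0.094), without the second WT CAF CM array (-0.94, limma adjusted p = 0.18) and where only these 4 arrays were fitted (limma adjusted p = 0.11), and the difference stayed negative in all 20 alternatives.

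Over not stimulated macrophages, which averaged 13.05 ± 0.33 (SD, n = 2), Csf3r was higher by 0.92 in KO CAF CM macrophages (SE 0.22, 95% interval 0.44 to 1.39, 1.89-fold, limma adjusted p = 0.014) and by 2.08 in WT CAF CM macrophages (SE 0.22, 95% interval 1.60 to 2.55, 4.21-fold, limma adjusted p = 8.8e-05). KO CAF CM raised 6.83% of all probe sets and lowered 8%, and WT CAF CM raised 4.08% and lowered 4.47%, and with each medium Csf3r was the single member called of 7. The KO CAF CM call was lost without the second KO CAF CM array (0.85, limma adjusted p = 0.077) or the second not stimulated array (0.68, limma adjusted p = 0.13). The WT CAF CM call was kept with any single array left out. With IL4 the difference was 1.11 (SE 0.22, 95% interval 0.63 to 1.59, 2.16-fold, limma adjusted p = 0.013), a call that was lost without the first IL4 array (1.15, limma adjusted p = 0.073), the second IL4 array (1.08, limma adjusted p = 0.084) or the second not stimulated array (0.88, limma adjusted p = 0.13). With IFNγ it was -0.28 (95% interval -0.76 to 0.20, limma adjusted p = 0.54). The 4 comparisons share the not stimulated arrays.

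The stimuli were also set against each other. Csf3r was higher with WT CAF CM than with IL4 by 0.97 (SE 0.22, limma adjusted p = 0.012), whereas KO CAF CM over IL4 gave -0.20 (95% interval -0.67 to 0.28, limma adjusted p = 0.67). The WT CAF CM difference lost its call without the second WT CAF CM array (0.75, limma adjusted p = 0.13) or either IL4 array (0.93 and 1.0, limma adjusted p = 0.076 and 0.055). Over IFNγ, Csf3r was higher by 1.2 with KO CAF CM (2.29-fold, limma adjusted p = 0.0025), by 2.36 with WT CAF CM (5.12-fold, limma adjusted p = 1.5e-05) and by 1.39 with IL4 (2.62-fold, limma adjusted p = 9.5e-04). These 3 calls held in all 17 alternatives run for them. The levels thus ran WT CAF CM, IL4, KO CAF CM, not stimulated and IFNγ from high to low, with WT CAF CM above IL4 and KO CAF CM above not stimulated by the test and the other neighbours not told apart. Of all probe sets, 14.8% were called for KO CAF CM against IL4, 11% for WT CAF CM against IL4, 14.1% for KO CAF CM against IFNγ, 11.6% for WT CAF CM against IFNγ and 12% for IL4 against IFNγ, and the corresponding counts of members were 1, 1, 2, 3 and 3 of 7.

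Because CSF3R is best known from neutrophils, their markers were read beside it. Of the 10 neutrophil markers measured, 2 to 4 lay above the median of both arrays, and the array means were 5.96 to 6.16 with KO CAF CM, 6.16 to 6.67 with WT CAF CM, 5.51 to 5.61 with IL4, 5.36 to 5.46 with IFNγ and 5.75 to 5.82 in not stimulated macrophages. Between KO CAF CM and WT CAF CM, 0 of the 10 were higher and 1, Mmp8, was lower, beside 0.666% and 0.694% of all probe sets. Over not stimulated macrophages, 2 were higher and 2 lower with KO CAF CM, 3 higher and 0 lower with WT CAF CM, 0 called with IL4, and 0 higher and 1 lower with IFNγ. The shares of all probe sets higher and lower were 6.83% and 8% with KO CAF CM and 4.08% and 4.47% with WT CAF CM. They were 1.66% and 2.38% with IL4, and 5.38% and 6.68% with IFNγ. The granule genes Camp, Ltf, Mpo and Elane and the gene Retnlg had signals between 3.30 and 5.43, below the median of every array. Among these dim genes, Camp was higher with KO CAF CM (1.02, limma adjusted p = 0.0079) and with WT CAF CM (0.91, limma adjusted p = 0.024) than without stimulation, and Ltf was lower with KO CAF CM (-0.93, limma adjusted p = 0.0061). Mmp8, neutrophil collagenase, was 10.25 and 10.15 with KO CAF CM, against 13 and 12.86 with WT CAF CM, a difference of -2.73 (limma adjusted p = 1.8e-04). Over not stimulated macrophages, at 11.68 and 11.01, it was lower with KO CAF CM (-1.15, limma adjusted p = 0.0055), higher with WT CAF CM (1.59, limma adjusted p = 0.001) and lower with IFNγ (-3.77, limma adjusted p = 9.2e-07). S100a8, a calcium-binding protein of neutrophils and monocytes, was 12.18 and 11.35 with KO CAF CM, against 10.23 and 12.88 with WT CAF CM, with no call between the media (0.21, limma adjusted p = 0.97). It was 7.76 and 6.60 in not stimulated macrophages, over which it rose by 4.59 with KO CAF CM (limma adjusted p = 7.2e-04) and by 4.38 with WT CAF CM (limma adjusted p = 0.0016). The markers S100a9, Ngp and Cxcr2 were not called with either medium. Their differences were -0.21, -0.59 and 0.24 with KO CAF CM, and 0.21, -0.70 and 0.25 with WT CAF CM. The monocyte marker Ly6c2 was 11.80 and 10.71 on the KO CAF CM arrays, 12.89 and 13.06 with WT CAF CM, 5.67 and 4.96 with IL4, 9.95 and 8.99 with IFNγ, and 7.40 and 7.22 in not stimulated macrophages. Its difference between KO CAF CM and WT CAF CM was -1.72 (limma adjusted p = 0.0531). The other monocyte marker measured, the chemokine receptor Ccr2, was lower with KO CAF CM than with WT CAF CM, at -2.34 (limma adjusted p = 0.0022), and lower with both than without stimulation. The part of other cells in the Csf3r signal was not tested, and in these bulk samples a changed share of cells and a changed amount of RNA per cell cannot be told apart.

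**Figure D3:**
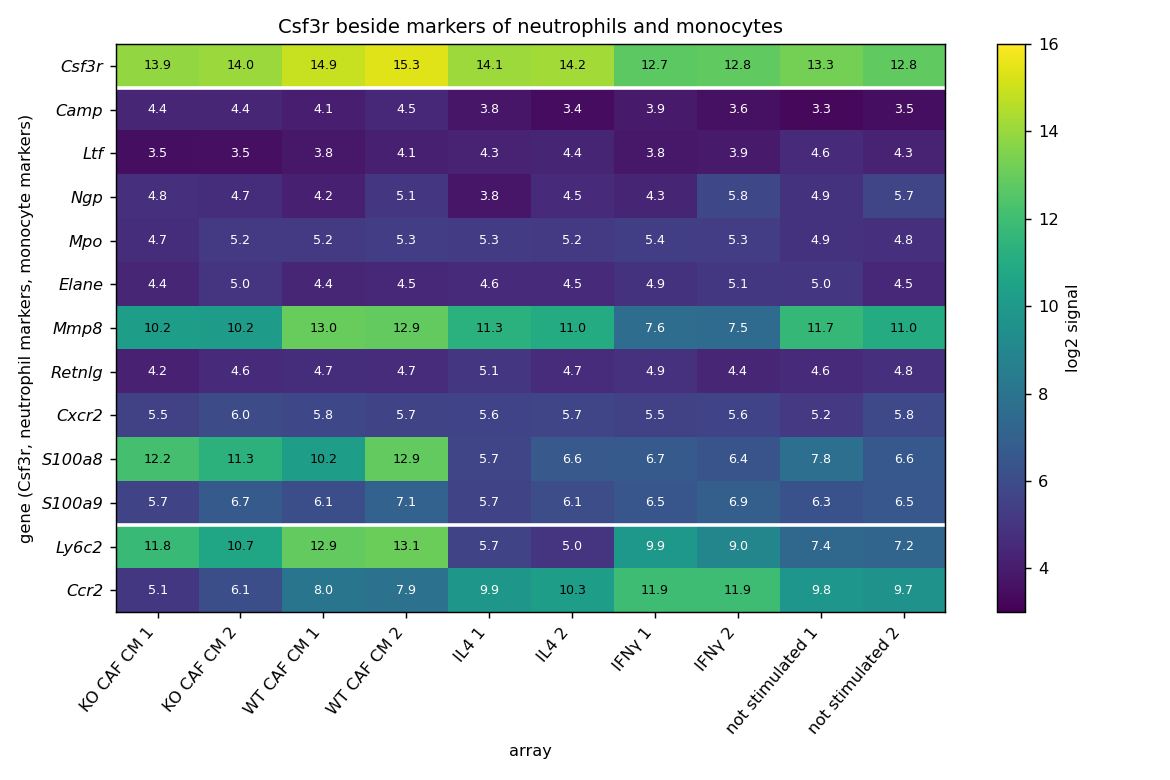
Log2 signal, by colour and number, of Csf3r (top row), 10 neutrophil markers (middle) and 2 monocyte markers (bottom) on each array. Across the arrays of a row, Csf3r runs from 12.71 to 15.34, Mmp8 from 7.52 to 13, S100a8 from 5.73 to 12.88 and Ly6c2 from 4.96 to 13.06, while Camp, Ltf, Mpo, Elane and Retnlg remain dark on all arrays.

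Csf2rb encodes the common beta chain through which GM-CSF, IL3 and IL5 signal. Its signal was 13.28 and 12.89 on the KO CAF CM arrays, 13.77 and 13.77 with WT CAF CM, 14.66 and 14.50 with IL4, 12.81 and 12.08 with IFNγ, and 13.77 and 13.03 in not stimulated macrophages. Both IL4 arrays lay above the other 8 and both IFNγ arrays below them, while both CAF media overlapped the not stimulated arrays. With IL4 it averaged 14.58 ± 0.11, against 13.40 ± 0.52 in not stimulated macrophages (SD, n = 2 each), a log2 difference of 1.18 (SE 0.29, 95% interval 0.55 to 1.81, 2.27-fold, limma adjusted p = 0.043). IL4 raised 1.66% of all probe sets and lowered 2.38%, and among the members it raised 2 of 7, Csf2rb and Csf3r, and lowered 0. The Csf2rb call was near the threshold and was lost without either IL4 array (1.10 and 1.26, limma adjusted p = 0.21 and 0.13), without the second not stimulated array (0.81, limma adjusted p = 0.27), without either WT CAF CM array (1.18, limma adjusted p = 0.058), under the methods' test for single genes (unadjusted p = 0.089) and with each array centred on its median (1.17, limma adjusted p = 0.061).

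With IFNγ the Csf2rb difference was -0.96 (SE 0.29, 95% interval -1.58 to -0.33, limma adjusted p = 0.0524), just short of the threshold, and 7 of 20 alternatives called it lower. Between the cytokines, Csf2rb was 2.14 higher with IL4 than with IFNγ (SE 0.29, 95% interval 1.51 to 2.76, 4.39-fold, limma adjusted p = 3.1e-04), a call kept in all 17 alternatives run for it. It was lower with KO CAF CM than with IL4, at -1.5 (SE 0.29, limma adjusted p = 0.0036), also in all 17, and higher with WT CAF CM than with IFNγ, by 1.33 (SE 0.29, limma adjusted p = 0.0091), a call lost without the second IFNγ array (0.96, limma adjusted p = 0.11) or the second WT CAF CM array (1.33, limma adjusted p = 0.0528). KO CAF CM over WT CAF CM gave -0.69 (95% interval -1.31 to -0.06), with an unadjusted p of 0.035 and an adjusted p of 0.42 in limma. The levels ran IL4, WT CAF CM, not stimulated, KO CAF CM and IFNγ from high to low, and no neighbours in this order differed by the test.

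Csf1r encodes the CSF1 receptor, a defining gene of the macrophage lineage. Its signal was 17.15 and 17.10 on the KO CAF CM arrays, 17.24 and 17.28 with WT CAF CM, 17.15 and 17.14 with IL4, 16.86 and 16.96 with IFNγ, and 17.23 and 17.27 in not stimulated macrophages. The range was narrow, the IFNγ arrays were the lowest, and both KO CAF CM arrays lay below both WT CAF CM arrays. With IFNγ the difference was -0.34 (SE 0.17, 95% interval -0.71 to 0.03, limma adjusted p = 0.27), and KO CAF CM over WT CAF CM gave -0.14 (95% interval -0.50 to 0.23, limma adjusted p = 0.89). How near these signals were to saturation was not tested.

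Csf2ra encodes the GM-CSF-specific alpha chain. Its signal was 16.65 and 16.05 on the KO CAF CM arrays, 16.47 and 16.26 with WT CAF CM, 16.59 and 16.32 with IL4, 16.22 and 15.98 with IFNγ, and 16.42 and 15.86 in not stimulated macrophages. The 2 KO CAF CM arrays stood furthest apart, and the conditions overlapped except for the IFNγ arrays, which lay below both WT CAF CM and both IL4 arrays. The differences over not stimulated macrophages were 0.21 with KO CAF CM, 0.23 with WT CAF CM, 0.32 with IL4 and -0.04 with IFNγ, each with an SE of 0.25, and KO CAF CM over WT CAF CM gave -0.02 (95% interval -0.57 to 0.54).

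Genes that share these receptors were next examined. IL34 is the other ligand of CSF1R, IL3 and IL5 signal through the beta chain, and IL3RA and IL5RA are their alpha chains. None of the 5 genes was called in any of the 5 comparisons. Il34 lay between 5.0 and 5.79, Il3 between 3.20 and 4.63, Il5 between 4.87 and 5.40, Il5ra between 2.92 and 3.99, and Il3ra between 8.83 and 9.96. Il3ra was the only one of them above the array medians on all arrays.

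Of the kinases, adaptors and STATs that act below the receptors, 18 of 20 were measured, and 0 were called between KO CAF CM and WT CAF CM, where 0.666% of all probe sets were higher and 0.694% lower, so that a count of 0 in this and the following lists is near the background. Against not stimulated macrophages, 4 were higher and 1 lower with KO CAF CM, 4 higher and 0 lower with WT CAF CM, 2 higher and 0 lower with IL4, and 5 higher and 0 lower with IFNγ. The shares of all probe sets higher and lower, against which these and the following counts are to be read, were 6.83% and 8% in the KO CAF CM comparison, 4.08% and 4.47% with WT CAF CM, 1.66% and 2.38% with IL4, and 5.38% and 6.68% with IFNγ. The median differences were 0.13 with KO CAF CM, 0.16 with WT CAF CM, and 0.12 with each cytokine, while the medians over all probe sets lay between -0.03 and 0 in these comparisons. Jak2, the kinase bound to the common beta chain, rose with all 4 stimuli, by 2.74 with KO CAF CM (limma adjusted p = 1.0e-05), 2.70 with WT CAF CM (1.8e-05), 1.81 with IL4 (8.7e-04) and 1.65 with IFNγ (4.9e-04). Its signal was 14.01 and 13.92 on the KO CAF CM arrays, 13.56 and 14.29 with WT CAF CM, 13.06 and 13.01 with IL4, 12.85 and 12.90 with IFNγ, and 11.32 and 11.13 in not stimulated macrophages, with no stimulated array as low as a not stimulated one. Fgr, a Src-family kinase of myeloid cells, rose by 2.28 with KO CAF CM and by 3.19 with WT CAF CM. Pik3cd, the leukocyte PI3K catalytic subunit, rose by 1.53 with KO CAF CM, 1.51 with WT CAF CM and 2.54 with IFNγ. Dok2, an adaptor, rose by 0.73 with KO CAF CM, 1.73 with IL4 and 1.18 with IFNγ. Stat3, which CSF3R activates, rose by 0.91 with WT CAF CM and 1.92 with IFNγ. The signalling adaptor Tyrobp was lower with KO CAF CM, at -0.71.

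All 12 feedback inhibitors were measured, and again 0 were called between KO CAF CM and WT CAF CM. Against not stimulated macrophages, 5 rose and 2 fell with KO CAF CM, 4 rose and 2 fell with WT CAF CM, 5 rose and 1 fell with IL4, and 3 rose and 3 fell with IFNγ. The medians were 0.37 with KO CAF CM, 0.32 with WT CAF CM, -0.05 with IL4 and -0.19 with IFNγ. Socs3, an inhibitor that binds CSF3R and related receptors, rose by 3.75 with KO CAF CM (limma adjusted p = 0.0011), by 5.02 with WT CAF CM (2.1e-04) and by 2.00 with IFNγ (0.0485). Its signal was 8.49 and 7.83 on the KO CAF CM arrays, 8.20 and 10.66 with WT CAF CM, 3.95 and 4.65 with IL4, 6.26 and 6.55 with IFNγ, and 4.66 and 4.16 in not stimulated macrophages, so that only the IL4 arrays overlapped those without stimulation. Socs1, an inhibitor of JAK kinases, rose by 1.93 with KO CAF CM, 3.01 with WT CAF CM, 3.73 with IL4 and 7.71 with IFNγ. Socs2 rose by 3.18 with IL4, where Cish, a STAT5 target that inhibits beta-chain signalling, rose by 2.37 (limma adjusted p = 2.1e-04). The phosphatase gene Ptpn6, which encodes SHP-1, rose by 1.39 with KO CAF CM, 1.08 with WT CAF CM and 1.06 with IFNγ, and was lower with IL4, at -1.01. The ERK phosphatase gene Dusp6 rose by 1.24 with WT CAF CM. Spry2, an inhibitor of receptor tyrosine kinase signalling, was lower, at -1.03 with KO CAF CM, -1.24 with WT CAF CM and -0.88 with IFNγ. The ubiquitin ligase gene Cblb rose by 1.84 with IL4 and was lower, at -0.84 with KO CAF CM, -1.18 with WT CAF CM and -0.91 with IFNγ. Adam17, the protease that sheds CSF1R, rose by 0.69 with KO CAF CM and was lower, at -0.75, with IFNγ.

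Of 13 transcription factors of myeloid receptor genes, 12 were measured, with 0 called between KO CAF CM and WT CAF CM. Against not stimulated macrophages, 2 rose and 4 fell with KO CAF CM, 2 rose and 1 fell with WT CAF CM, 2 rose and 2 fell with IL4, and 1 rose and 4 fell with IFNγ. The medians were -0.06 with KO CAF CM, -0.16 with WT CAF CM, -0.14 with IL4 and -0.51 with IFNγ. Cebpa, a factor required for granulocyte and monocyte development and an activator of Csf3r, was lower, at -2.81 with KO CAF CM (limma adjusted p = 3.8e-06), -3.39 with WT CAF CM (1.4e-06) and -2.86 with IFNγ (3.1e-06). With both CAF media Cebpa was lower and Csf3r higher, and with IFNγ only Cebpa was called. Whether Cebpa acted on Csf3r in these cells was not tested. The related factor gene Cebpb rose by 1.38 with KO CAF CM and by 1.40 with WT CAF CM. Ets2, an ETS factor that acts below CSF1R, rose by 4.95 with KO CAF CM and by 4.13 with WT CAF CM and was lower, at -1.46 with IFNγ. Runx1 was lower, at -0.90 and Irf8, a factor of monocyte development, at -0.93 with KO CAF CM, while Irf8 rose by 2.68 with IFNγ. Mitf rose by 1.13 with IL4 and was lower, at -1.25 with IFNγ. With IL4, Klf4 rose by 0.93 and Maf was lower, at -2.68. Fli1 was lower, at -0.61 with KO CAF CM, -0.75 with IL4 and -0.79 with IFNγ.

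Of 10 genes known to respond to GM-CSF in myeloid cells, 7 rose and 0 fell with IL4, with a median difference of 2.53 beside 0 over all probe sets. The largest were Flt1, a VEGF receptor, at 6.45 (limma adjusted p = 3.1e-07), the chemokine gene Ccl22 at 4.26 (limma adjusted p = 0.0017) and the transcription factor gene Irf4 at 4.15 (limma adjusted p = 1.9e-05). Several of these genes are also known to respond to IL4 itself. With KO CAF CM 1 rose and 2 fell, with WT CAF CM 1 rose and 3 fell, and with IFNγ 3 rose and 3 fell, with medians of -0.53, -0.33 and 0.43. Pim1, a survival kinase, rose by 2.32 with KO CAF CM, 2.25 with WT CAF CM, 1.18 with IL4 and 2.25 with IFNγ. Pparg, the nuclear receptor that GM-CSF induces in alveolar macrophages, was lower, at -4.14 with KO CAF CM, -4.37 with WT CAF CM and -1.68 with IFNγ, and rose by 1.93 with IL4. Bhlhe40, a factor downstream of the beta chain, was lower, at -2.51 with KO CAF CM, -2.01 with WT CAF CM and -2.51 with IFNγ, and rose by 3.14 with IL4. The integrin gene Itgax was lower, at -1.40 with WT CAF CM and -1.48 with IFNγ, and rose by 3.90 with IL4. Ccnd2 and Flt1 rose by 4.05 and 2.35 with IFNγ. Between KO CAF CM and WT CAF CM 0 of the 10 were called.

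Of 10 genes known to respond to CSF1 in macrophages, 9 were measured, and 2 were higher and 1 lower with KO CAF CM than with WT CAF CM, with a median of 0.78 beside 0.01 over all probe sets. Myc, a growth regulator, was 12.80 and 12.77 with KO CAF CM, against 10.34 and 8.93 with WT CAF CM, a difference of 3.15 (SE 0.39, limma adjusted p = 0.0023). The paper's RT-PCR, after a shorter stimulation than on these arrays, found no different increase of Myc between the media. The cause of this discrepancy was not tested. Bcl2a1a, a survival gene with near-identical copies, was higher by 1.64 (SE 0.22, limma adjusted p = 0.0039), and the integrin gene Itgb5 was lower, at -1.65 (SE 0.20, limma adjusted p = 0.0023). Against not stimulated macrophages, 3 rose and 4 fell with KO CAF CM, 2 rose and 6 fell with WT CAF CM, 3 rose and 0 fell with IL4, and 0 rose and 3 fell with IFNγ, with medians of -0.11, -1.66, 0.79 and -0.81. Bcl2a1a rose by 3.32 with KO CAF CM, 1.68 with WT CAF CM and 1.30 with IL4, and the glucose transporter gene Slc2a1 rose by 1.92 with KO CAF CM and by 1.57 with WT CAF CM. Myc rose by 1.5 with KO CAF CM and 2.09 with IL4 and was lower, at -1.66 with WT CAF CM. Itgb5 was lower, at -4.21 with KO CAF CM, -2.56 with WT CAF CM and -1.93 with IFNγ. The urokinase gene Plau was lower, at -3.12 with KO CAF CM, and at -3.90 with WT CAF CM. Egr2, an immediate-early factor, was lower, at -1.70 with KO CAF CM, -3.06 with WT CAF CM and -3.12 with IFNγ, and rose by 3.08 with IL4. Ets1 was lower, at -1.05 with WT CAF CM and -1.37 with IFNγ.

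The mRNAs of Csf2 and Csf3 carry AU-rich elements on which factors of decay and of stability act. Of 8 listed factors of mRNA decay and stability, 1 was called between KO CAF CM and WT CAF CM. The list pools both functions, so its counts and medians give no direction of decay. Zfp36l1, which promotes decay, was 9.22 and 10.46 with KO CAF CM, against 13.96 and 14.08 with WT CAF CM, a difference of -4.18 (SE 0.32, limma adjusted p = 9.2e-05). Against not stimulated macrophages 1 rose and 3 fell with each CAF medium, 0 were called with IL4, and 0 rose and 1 fell with IFNγ, with medians of -0.29 with KO CAF CM, -0.39 with WT CAF CM, 0.07 with IL4 and -0.28 with IFNγ. Zfp36l1 was lower, at -4.84 with KO CAF CM. Zc3h12a, which encodes the ribonuclease regnase-1, rose by 3.22 with KO CAF CM and by 3.01 with WT CAF CM. Zfp36l2 was lower, at -1.69 with KO CAF CM, and at -1.17 with WT CAF CM, and Rc3h1, which encodes roquin-1, at -1.23 with KO CAF CM, -0.80 with WT CAF CM and -0.88 with IFNγ. Zfp36 was lower, at -0.88 with WT CAF CM. Csf2 and Csf3 passed no test in the same comparisons, but at 3.56 to 3.92 and 3.83 to 5.10 both lay below every array median. A change in such dim signals could be missed, and a link to these factors was not tested.

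**Figure D4:**
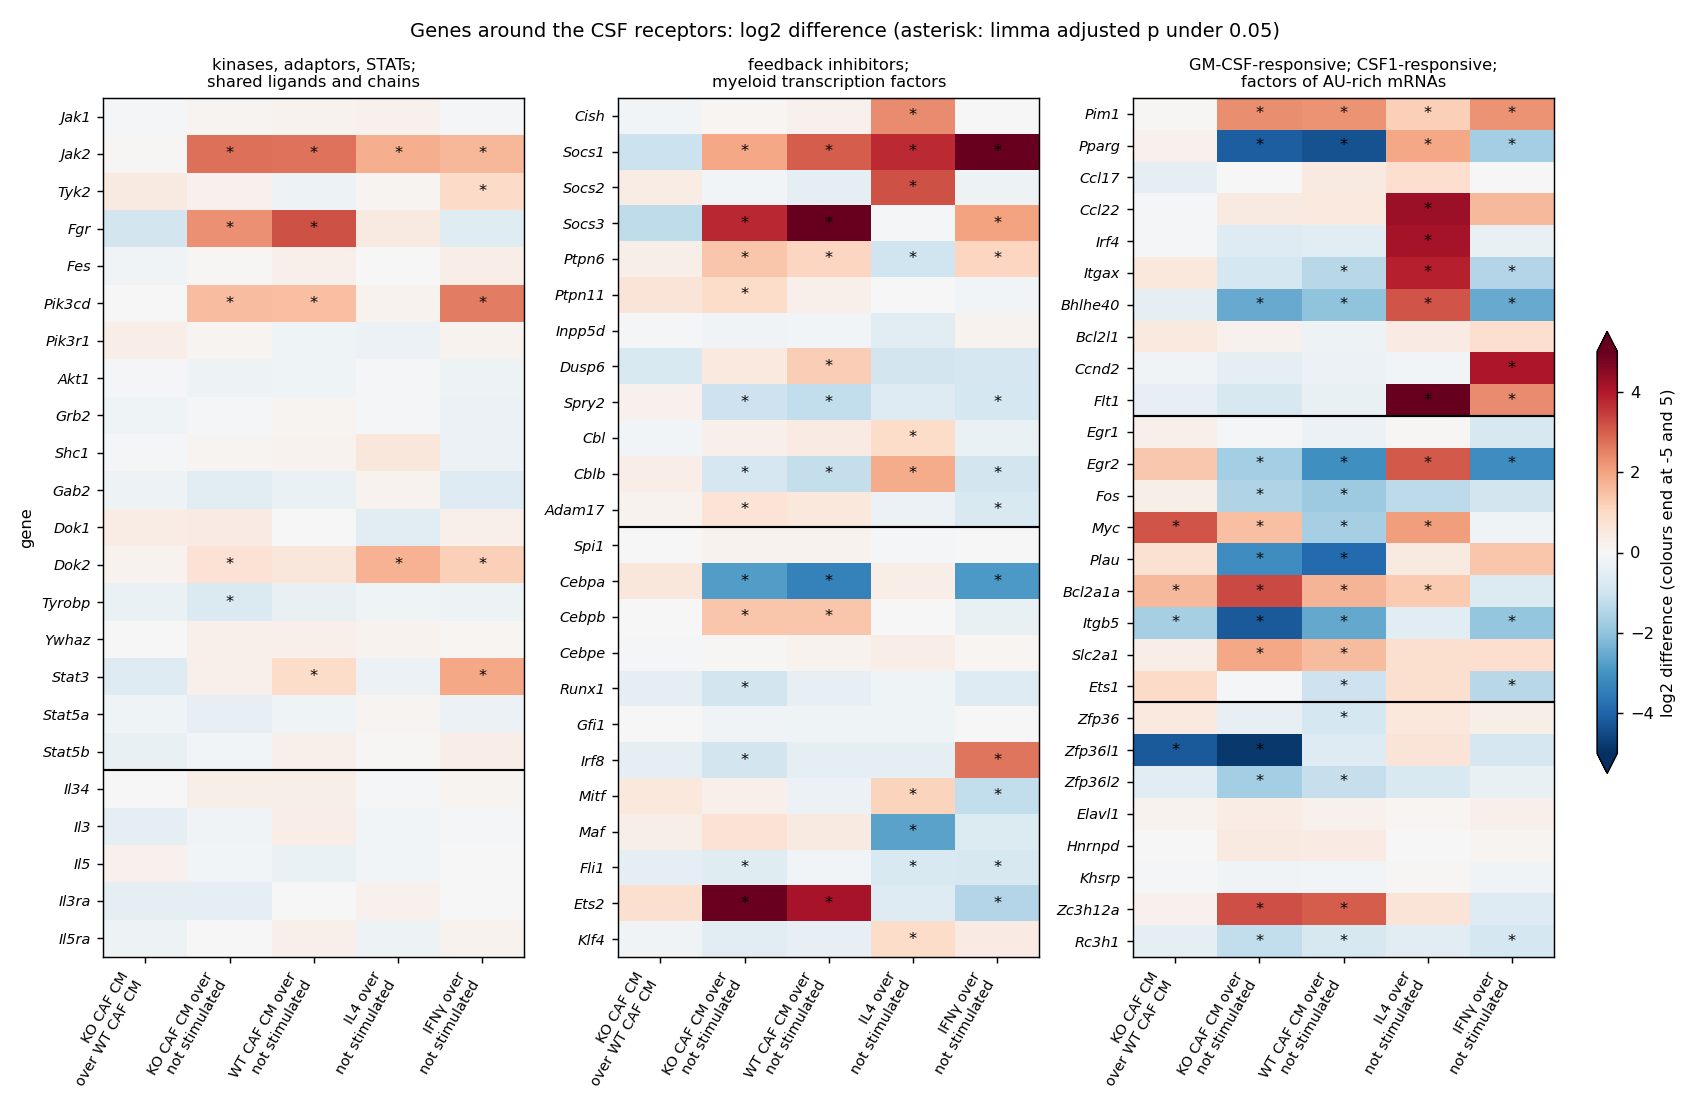
Log2 difference of the measured genes around the CSF receptors (rows, in 3 panels, lists divided by black lines) in 5 comparisons (columns), red for higher and blue for lower, with an asterisk where the limma adjusted p was under 0.05. In the first column, KO CAF CM over WT CAF CM, 4 genes carry an asterisk, Myc and Bcl2a1a in red and Itgb5 and Zfp36l1 in blue, and Jak2 carries one in each of the other 4 columns.

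The members whose condition means spanned at least 1 log2 unit were Csf1, Csf2rb and Csf3r, and the probe sets most like them over the 10 arrays were sought among 4097 with such a span. Csf1 was followed most closely by Noc4l (r = 0.950), Mcmbp (r = 0.933) and Arhgef3 (r = 0.919), all highest with IFNγ. Csf2rb was followed by the prostaglandin E2 receptor gene Ptger2 (r = 0.971), Zfp703 (r = 0.953) and Kcnk6 (r = 0.947), all highest with IL4 and lowest with IFNγ. Csf3r was followed by Flrt3 (r = 0.956), the immediate-early gene Ier3 (r = 0.954) and the IL36 receptor gene Il1rl2 (r = 0.950), all highest with WT CAF CM. Flrt3 was dim, at 5.62 and 6.06 with WT CAF CM and 4.18 to 4.99, below the array medians, in the other conditions. Ier3 was 12.40 and 12.12 on the KO CAF CM arrays, 13.30 and 13.98 with WT CAF CM, 12.90 and 12.54 with IL4, 7.99 and 8.06 with IFNγ, and 9.76 and 8.71 in not stimulated macrophages. These correlations describe 10 arrays that fall into 5 conditions, and they are given without a test.

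**Figure D5:**
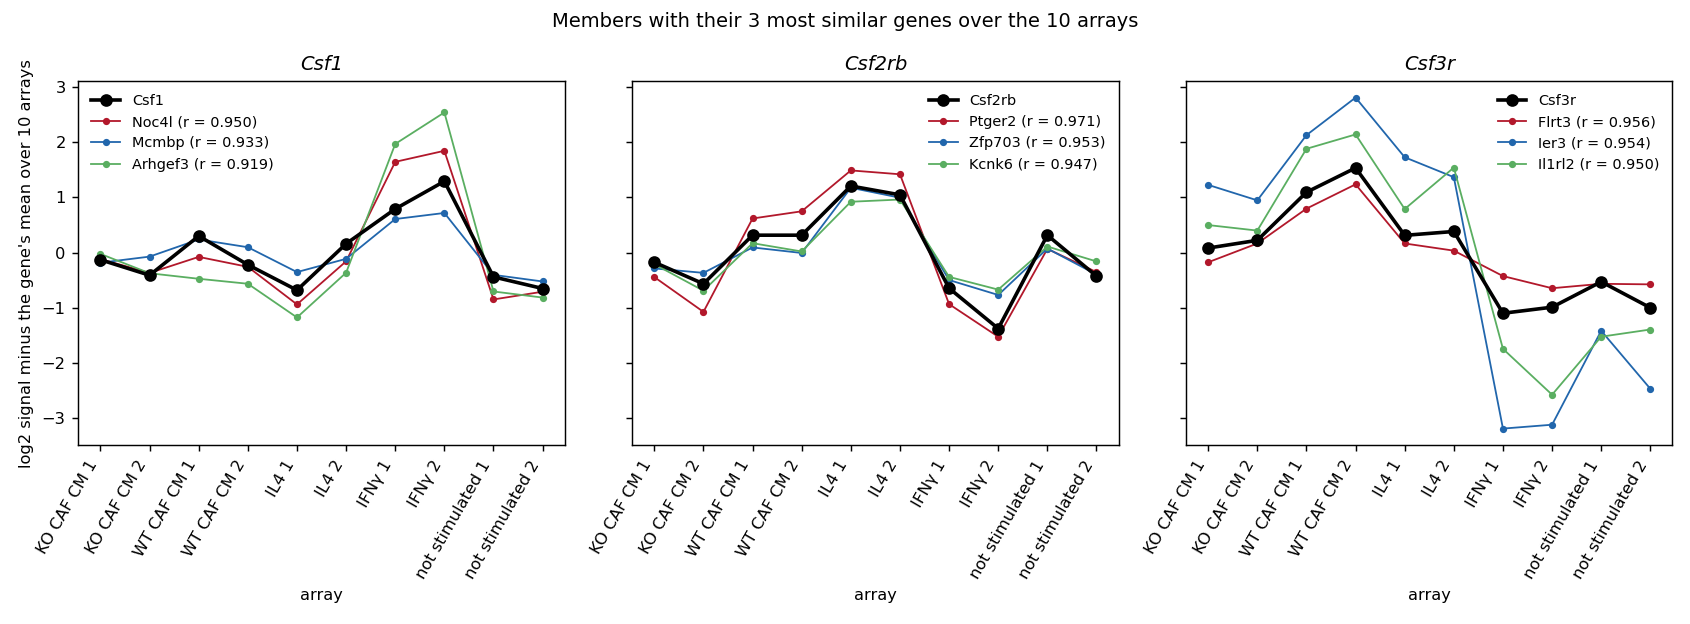
Log2 signal minus the gene's own mean over the 10 arrays for Csf1, Csf2rb and Csf3r (black) and the 3 genes most like each (colours), with lines joining the arrays only to guide the eye. The peaks are at IFNγ for Csf1, at IL4 for Csf2rb and at WT CAF CM for Csf3r, and r runs from 0.919 to 0.971.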

How the data were processed

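RNA of BMDMΦs was hybridised to 10 Clariom S arrays, 2 per condition. The deposited log2 signals, rounded to 2 decimals, were taken without further change. The submitters' processing notes list RMA and limma, versions not given. Detection calls were not used, so dim genes are given by their signal. Probe sets were named from the platform annotation, in which 19572 have 1 symbol and 2634 have none. Some listed genes are not reported here.

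With limma 3.58.1 (R 4.3.3), all 10 arrays entered a single fit of condition means, which left 5 residual and added 6.43 prior degrees of freedom. All 10 pairs of conditions were compared, two-sided, with p-values adjusted by Benjamini-Hochberg over 22206 probe sets per comparison. The methods name the manufacturer's software for the arrays and a Student test elsewhere. The fit was also run on simulated data, with results not reported here. The number of arrays limits the precision, which the 95% intervals of the moderated test express.

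The members and lists were chosen with earlier results of these data known. The text names all members, all shared ligands and chains, every listed gene called between KO CAF CM and WT CAF CM, up to 3 called genes per list, direction and comparison with not stimulated macrophages, and the 3 probe sets most correlated with each varying member. Motifs were searched with Python 3.11.15 in RefSeq promoters, and figures were drawn with matplotlib 3.10.9. The alternatives were probe set filters, normalization, scaling, moderation, array weights, the replicate number as a block, single arrays left out, a fit of 2 conditions, and the methods' t-test.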

Additional observations from a re-analysis of the deposited data

Results flagged for a closer look

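For 3 members the effects of 2 stimuli over the same not stimulated arrays differed. The not stimulated arrays cancel in such a difference, so the values are those of the direct comparisons given above and add no further test. The Csf3r effect was smaller with KO CAF CM than with WT CAF CM by a log2 difference of -1.16 (limma adjusted p = 0.024), with effects of 0.92 (KO CAF CM) and 2.08 (WT CAF CM). Between the cytokines, the IL4 effect minus the IFNγ effect was 1.39 for Csf3r (limma adjusted p = 9.5e-04), 2.14 for Csf2rb (limma adjusted p = 3.1e-04) and -1.30 for Csf1 (limma adjusted p = 0.011). As given above, the Csf3r call between the media and the Csf1 call between the cytokines were each lost in some alternatives. With 2 arrays per condition, no single array could be examined as an outlier. Their causes were not tested.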

How the results depend on the processing

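Of 860 recomputed single values, 794 kept their direction and side of the threshold. With 1 array left out at a time, the number of members called ran from 0 to 1 for KO CAF CM over WT CAF CM, 0 to 1 for KO CAF CM and 1 to 1 for WT CAF CM over not stimulated, 0 to 2 for IL4 and 1 to 2 for IFNγ. Fitting only the 2 conditions compared called 0 members for KO CAF CM over WT CAF CM, and 104 of all probe sets, against 302 in the fit of all arrays. Median centring called 1 for IL4. For IFNγ, 2 were called with dim probe sets left out, with only probe sets of 1 symbol, with trend and robust moderation and with array weights, since Csf2rb then passed (limma adjusted p = 0.025 to 0.0497). The methods' t-test with no adjustment called 0 for KO CAF CM over not stimulated and 2 for IFNγ, Csf1 and Csf1r. For IL4 its count of 2 held different genes, since Csf2rb was lost and Csf1r (-0.11) passed. With Benjamini-Hochberg it called 0 members in each of the 5 comparisons, and 2 to 13 of all probe sets. The cause of these changes was not tested where fewer arrays or probe sets do not account for it.

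Direction changed only for members with no call, and only without 1 array. The lowest and highest differences were -0.20 and 1.08 for Csf3 and -0.32 and 0.29 for Csf2ra in KO CAF CM over WT CAF CM. Over not stimulated, they were -0.09 and 0.51 for Csf2ra and -0.69 and 0.06 for Csf2rb with KO CAF CM, -0.01 and 0.03 for Csf1r, -0.46 and 0.82 for Csf3 and -0.06 and 0.51 for Csf2ra with WT CAF CM, -0.14 and 0.71 for Csf1 and -0.23 and 0.13 for Csf2 with IL4, and -0.32 and 0.24 for Csf2ra and -0.16 and 0.10 for Csf2 with IFNγ.

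The titles share 2 numbers over all conditions, and what they mark is not given. The differences between the numbers correlated at -0.05 to 0.19 over the 10 pairs of conditions, above 0.1 in 3, and the main fit did not pair the arrays by them. A correlation over all probe sets, many of them dim, cannot exclude that the numbers pair the arrays. With the number as a replicate block, 2 members were called for IFNγ (Csf2rb, limma adjusted p = 0.015), and Csf1 lost its call for WT CAF CM over IFNγ (-1, limma adjusted p = 0.0522). The block changed no other call on a member and moved the calls over all probe sets from 302 to 406 for KO CAF CM over WT CAF CM. Over not stimulated macrophages they also rose, from 3292 to 3431 with KO CAF CM and from 1900 to 2092 with WT CAF CM. With IL4 they went from 898 to 1100 and with IFNγ from 2679 to 2823. The comparisons between stimuli were recomputed under alternatives chosen after seeing the data. No member had a further probe set, so the lowest-mean probe set gave no value.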
